A study of Mus musculus with 12 samples.

Results

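Folr2 Mrc1 macrophages are tumor macrophages whose RNA holds both the folate receptor gene Folr2 and the mannose receptor gene Mrc1, while Arg1 and Cxcl9, which mark other macrophages of these tumors, are low. They were chosen from single-cell RNA counts by a rule on measured values. A cell had to hold more than 200 and fewer than 5000 genes, at most 10% mitochondrial UMIs (unique molecular identifiers, each standing for 1 captured RNA molecule), at least 2 UMIs of the macrophage genes Adgre1 and Csf1r together, at least 2 of Folr2 and at least 2 of Mrc1, none of Cd3d, Cd3e, Cd3g, Mki67 or Top2a, and fewer than 5 UMIs of Arg1 and of Cxcl9 per 10000. The rule found 1077 cells. They made up 0.835% of the 128912 cells that passed the limits on genes and mitochondrial UMIs (95% exact binomial interval, 0.786 to 0.887%) and 2.0% of the 53868 macrophages, meaning cells that met the same rule without its limits on Folr2, Mrc1, Arg1 and Cxcl9 (1.88 to 2.12%). These intervals, like those that follow, cover counting error only.

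The cells came from subcutaneous tumors of MC38, a mouse colon carcinoma line, in C57BL/6 mice; the age of the mice was not among the labels. Mice received vehicle or the EZH2 inhibitor (EZH2i) PF-06821497, which was given under the skin once a day at 100 mg/kg. Treatment began on day 1 or on day 10 after implantation, so that the 4 groups of 3 samples were vehicle for 7 days, EZH2i for 7 days, vehicle for 16 days and EZH2i for 16 days, all collected on day 17. CD45+ cells, that is leukocytes, were drawn from the tumors with microbeads and sequenced by droplet single-cell RNA-seq. All 12 libraries were in 1 matrix in which a cell barcode carries a library number, and no label ties that number to a mouse or a treatment. It counts here as a single pooled sample. The treatment groups were not compared and no test was made. Values are given for the pooled cells and, for the genes the results turn on, across libraries.

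FOLR2 is a membrane protein that binds folate, and MRC1 (CD206) is a lectin that takes up glycoproteins ending in mannose. In many mouse tissues the pair marks perivascular and interstitial macrophages that clear debris and take up iron and lipid. Tumor macrophages also arise from blood monocytes, which lose Ly6c2 and Ccr2 as they mature.

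Libraries differed in size and depth. They held 3330 to 37413 cells, with a median of 2450 to 18722 UMIs per macrophage. Among kept cells, 1877 barcode sequences occurred in more than 1 library; 33 Folr2 Mrc1 macrophages carried such a sequence, and no sequence was shared between Folr2 Mrc1 macrophages of different libraries. Y-linked UMIs were found in Folr2 Mrc1 macrophages of libraries 1 to 6 and not in libraries 7 to 12, where Xist was found instead. The study's methods name female mice, which the Y-linked RNA of libraries 1 to 6 goes against. Without these libraries 422 Folr2 Mrc1 macrophages remained, 2.82% of macrophages.

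Each library held Folr2 Mrc1 macrophages, the fewest in library 6 (24 cells) and the most in library 4 (327 cells); the middle of the 12 counts was 57.5. Library 4 alone held 30.4% of them, and libraries 4 and 12 together held 42.8%. Their share of macrophages ran from 0.196% in library 6 (0.126 to 0.292%) through a median of 1.96% to 6.96% in library 4 and 7.84% in library 12 (6.61 to 9.21%). A rule on UMIs is easier to meet in a deeper cell, and depth differed between libraries. Library 6 had the lowest share and the shallowest macrophages, at a median of 2450 UMIs, and library 12 was among the deepest, at 16882.5. Library 8, the deepest at 18722 UMIs, had a share of only 2.02%, and library 4, at 6993 UMIs, lay below the median of 7867.5. With the limit set at 2 per 10000 UMIs instead, the share rose to 1.28% in library 6 and dropped to 3.98% in library 12, while library 4 stayed at 6.98%. With macrophages thinned to 2000 UMIs each and 1 UMI of both genes required, the share was 3.69% in library 4, 2.16% in library 10, 2.13% in library 12 and 0.391% in library 8, which was then the lowest. Library 4 thus held the highest share at both depth-adjusted settings, and the order of the other libraries depended on the setting.

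**Figure D1:**
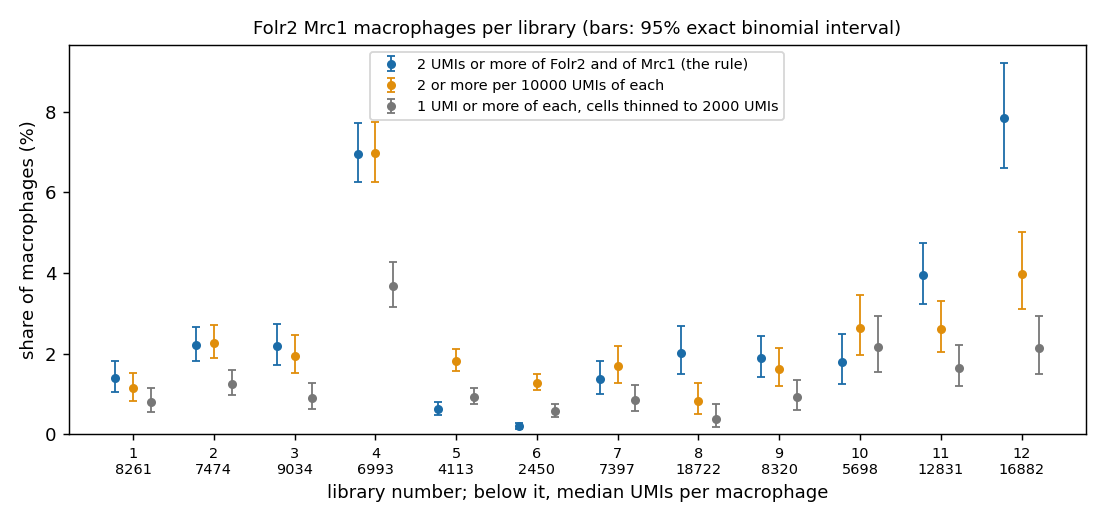
Share of macrophages (%, vertical axis) in each of the 12 libraries (horizontal axis, with the median UMIs per macrophage) under the rule (blue), with limits per 10000 UMIs (orange) and after thinning (grey). Bars are 95% exact binomial intervals. Library 4 lies at 6.96, 6.98 and 3.69%, whereas library 12 falls from 7.84% under the rule to 3.98 and 2.13%.

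The Arg1 and Cxcl9 limits removed more than they kept. Of 2412 macrophages with at least 2 UMIs of both Folr2 and Mrc1, 1077 were below both limits (44.7%, 42.7 to 46.7%), 1156 were Arg1-high (47.9%, 45.9 to 49.9%), 112 were Cxcl9-high (4.64%) and 67 were both (2.78%). ARG1 breaks down arginine and CXCL9 is a chemokine induced by interferon gamma. Double-positive cells were 6.77% of the 17063 Arg1-high macrophages (6.40 to 7.16%), 4.25% of macrophages below both limits (4.01 to 4.51%) and 1.34% of the 8347 Cxcl9-high macrophages (1.11 to 1.61%). Median depth was 6408 UMIs in Arg1-high and 4920 in Cxcl9-high macrophages, and the part of depth in these shares was not tested.

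Markers fitted the name at the level of macrophages. C1qa, which codes for a chain of the complement starter C1q and was not used by the rule, stood at 7316 CPM (UMIs of a gene per 1000000 UMIs; 5241 to 8795 across libraries), against 5652 CPM (3872 to 6859) in the other macrophages. After thinning to 2000 UMIs, 98.9% of Folr2 Mrc1 macrophages and 91.4% of the other macrophages held a C1qa UMI, and so did 27.7% of T cells, which do not make it. These T cells were required to hold no UMI of Adgre1 or Csf1r, so their shares here and later may understate the background of free RNA. All 9 macrophage markers were detected, and their summed level was 16700 to 23400 CPM. Adgre1 and Csf1r are among the 9, and the rule required at least 2 UMIs of them together, so their part was set by the rule. Defining markers of T cells were at 0 by the rule. Of the tumor markers, Krt8, Krt19, Krt7 and Cldn4 had no UMI in any of the 1077 cells, which allows a share of cells with a UMI of up to 0.279%, taken here and at later counts of 0 as 3 counts of the total. NK cell markers summed to 1.65 CPM, with Ncr1, Klra8 and Prf1 at 0. All 5 neutrophil markers were detected. At least 1 UMI of them was held by 41.3% of Folr2 Mrc1 macrophages and 24.0% of the others, although their summed level was lower, at 125 CPM (20.6 to 356 across libraries) against 322 CPM (51.1 to 855). Fibroblast markers were held by 12.8% against 4.71%, at 15.4 and 10.8 CPM. Folr2 Mrc1 macrophages were deeper, with a median of 9544 UMIs and 2764 genes against 5402 UMIs and 1935 genes in the other macrophages. No doublet caller was run, and the part of doublets was not tested; with every cell that held a UMI of another lineage left out, 508 Folr2 Mrc1 macrophages remained. Of genes, 280 were then higher and 194 lower than in the other macrophages in the 10 libraries that kept at least 20 cells, against 235 and 164 in 12 libraries without that step, and fewer libraries make a call easier.

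The genes that set these cells apart are shown with the sequence before their start. Folr2 lies on chromosome 7 at chr7:101839988-101857194, minus strand, next to the related Folr1, and Mrc1 at chr2:14229392-14332057, plus strand (GENCODE M21, GRCm38). The chemokine gene Ccl8 lies at chr11:82115185-82116799, plus strand, in a row with Ccl2, Ccl7 and Ccl12. The lectin gene Fcna lies at chr2:25624666-25628030, minus strand. The 250 bases before the annotated starts are given for Folr2, Ccl8 and Fcna and for a pair of MHC class II genes that were lower, as examples chosen after the values were seen. Each window shown holds a match to its motif, Cbr2, the gene with the highest ratio, is not among them, and Folr2 was set by the rule. Sequences and starts are from RefSeq (GRCm38.p6), whose starts of Folr2 and Fcna lie inside the GENCODE genes given above. They are printed 5′ to 3′ on the gene's strand. Capitals mark TGCTGA, the core of the site that MAF binds, on either strand (as TGCTGA or TCAGCA) in the first 4 sequences. In the last pair they mark CTGATTGG, the Y box of MHC class II promoters, searched likewise with CCAATCAG. In H2-Eb1 the Y box shares 4 letters with a match to TGCTGA, which was counted as well.
Folr2, upstream start, chr7:101857191-101857440, minus strand: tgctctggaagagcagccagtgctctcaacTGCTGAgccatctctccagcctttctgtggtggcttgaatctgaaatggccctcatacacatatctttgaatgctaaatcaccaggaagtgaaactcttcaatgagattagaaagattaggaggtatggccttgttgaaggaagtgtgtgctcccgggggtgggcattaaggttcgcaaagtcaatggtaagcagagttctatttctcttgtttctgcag
Folr2, downstream start, chr7:101845332-101845581, minus strand: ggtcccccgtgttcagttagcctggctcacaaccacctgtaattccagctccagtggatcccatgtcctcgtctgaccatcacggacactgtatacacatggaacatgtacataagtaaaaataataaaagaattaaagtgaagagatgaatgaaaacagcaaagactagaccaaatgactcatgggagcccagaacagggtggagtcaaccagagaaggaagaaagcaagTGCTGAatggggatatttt
Ccl8, chr11:82114935-82115184, plus strand: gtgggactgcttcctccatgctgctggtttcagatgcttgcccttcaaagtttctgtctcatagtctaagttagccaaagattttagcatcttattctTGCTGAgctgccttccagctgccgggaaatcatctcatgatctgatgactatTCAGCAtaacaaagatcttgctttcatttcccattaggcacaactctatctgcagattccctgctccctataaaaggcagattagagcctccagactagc
Fcna, chr2:25627975-25628224, minus strand: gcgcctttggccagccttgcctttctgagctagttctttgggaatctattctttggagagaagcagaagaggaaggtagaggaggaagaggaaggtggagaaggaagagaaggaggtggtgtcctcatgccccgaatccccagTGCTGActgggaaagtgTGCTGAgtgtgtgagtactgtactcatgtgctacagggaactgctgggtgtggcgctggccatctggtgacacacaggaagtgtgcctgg
H2-Aa, chr17:34287824-34288073, minus strand: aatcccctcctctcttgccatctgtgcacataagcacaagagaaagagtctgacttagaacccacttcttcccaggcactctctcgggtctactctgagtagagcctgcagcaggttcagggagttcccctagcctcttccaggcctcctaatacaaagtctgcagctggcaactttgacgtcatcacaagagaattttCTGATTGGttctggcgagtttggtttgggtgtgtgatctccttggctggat
H2-Eb1, chr17:34305617-34305866, plus strand: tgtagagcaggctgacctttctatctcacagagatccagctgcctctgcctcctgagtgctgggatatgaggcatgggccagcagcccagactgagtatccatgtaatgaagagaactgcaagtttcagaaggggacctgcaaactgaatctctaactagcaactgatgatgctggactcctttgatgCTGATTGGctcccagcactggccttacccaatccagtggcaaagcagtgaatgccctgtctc

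The MAF core was in the windows of Ccl8, Fcna and Pmp22, 3 of the 10 genes with a window among the 12 named below as highest, and in 16.1% of 32851 windows overall. The Y box was in H2-Aa, H2-Eb1 and H2-Oa, 3 of the 7 MHC class II pathway genes with a window, and in 3.83% overall. The MAF core was in 1 of these 7, H2-Eb1, and the Y box in none of the 10. A gene with several windows was counted when any of them matched, whereas the overall shares are of single windows, so the units differ. These matches are a description of the letters and not sites of binding. Maf itself, which codes for a transcription factor of mature macrophages, was at 514 CPM in Folr2 Mrc1 macrophages and 214 CPM in the others (median log2 ratio, 1.16), and Ciita, the coactivator of the MHC class II promoters, was at 7.08 CPM (1.87 to 25.2 across libraries) and 35.8 CPM (6.70 to 65.8) and was not called.

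To find what the rule had not used, the RNA of Folr2 Mrc1 macrophages was set against that of 24253 other macrophages, which were below the same Arg1 and Cxcl9 limits but did not reach 2 UMIs of both Folr2 and Mrc1. The rule set no limit on monocyte or dendritic cell genes, so each class called macrophages here may include such cells. Monocyte markers were held by 38.1% of Folr2 Mrc1 macrophages and 54.8% of the others, at 205 and 1286 CPM. The part of such cells in the differences below was not tested. UMIs were summed by library, and a gene was called when its level differed by at least 1.5-fold in the median library and in the same direction in each of the 12. Of 7255 genes measured, 235 were higher (3.24%) and 164 were lower (2.26%). Folr2 (351 against 13.1 CPM) and Mrc1 (731 against 241 CPM) are among the higher genes because the rule used them. TMM scaling (trimmed mean of M values, from edgeR) moved the split to 157 higher and 242 lower, and thinning all cells to 2000 UMIs gave 129 and 129, so the balance of directions is not a result. The median log2 ratio of all genes was 0.004, and -0.088 with TMM.

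Over the pooled cells Ccl8, a chemokine that draws monocytes and T cells, was the most abundant of the 12 genes with the highest ratios. It was at 7338 CPM, or 3088 CPM without library 4. Wfdc17 was at 5259 CPM with all libraries, and the order of the pair without library 4 was not tested. The level of Ccl8 in Folr2 Mrc1 macrophages was 1810 CPM in the lowest library, 3324 CPM in the median library and 19840 CPM in library 4, against 56.9, 395 and 3023 CPM in the other macrophages. Only library 4 of the other macrophages reached the range of the Folr2 Mrc1 macrophages, and within each library Ccl8 was higher in the latter (median log2 ratio, 3.21; 2.98 to 3.43 with 1 library left out at a time). After thinning, 75.9% of Folr2 Mrc1 macrophages and 27.2% of the others held a Ccl8 UMI, as did 5.79% of T cells. Its neighbours on chromosome 11 differed less. Ccl7 was at 819 against 360 CPM (1.13, called), Ccl2 at 982 against 592 CPM (0.66, not called) and Ccl12 at 1359 against 1004 CPM (0.23, not called).

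Among called genes of at least 50 CPM the highest ratio was that of Cbr2, a carbonyl reductase, at 75.5, 262 and 531 CPM in the lowest, median and highest library, against 6.41, 19.6 and 68.1 CPM (median log2 ratio, 3.86). The groups did not overlap across libraries. Fcna, a ficolin that recognizes microbial sugars, came next, at 12.6, 63.3 and 434 CPM against 1.84, 2.75 and 18.2 CPM (3.64). The lowest library of the first group lay within the range of the second. Fcna was at only 4.66 CPM over the pooled other macrophages, and its rank depended on the setting. With a pseudocount of 5 CPM the ratio of Fcna was 2.86, below that of Ccl8 at 3.19. It was above that of Cbr2 in pooled sums (4.02 against 3.60) and after thinning to 2000 UMIs (3.89 against 3.79). Pmp22, a membrane protein best known from myelin, was at 191 to 540 CPM against 20.3 to 66.8 CPM (2.83), with no overlap. Wfdc17, a small secreted inhibitor of inflammation, was at 1707 to 11920 CPM against 310 to 2338 CPM (2.21), and Serpinb6a, a protease inhibitor, at 151 to 1122 CPM against 26.3 to 220 CPM (2.48). Both ranges overlapped at their ends. The remaining 6 of the 12 highest were Fabp4, a fatty acid binding protein (2.67), the stress cytokine Gdf15 (2.44), the sialic acid lyase Npl (2.30), the lysosomal glycoprotein Gpnmb (2.27), the clotting factor subunit F13a1 (2.23) and the proton pump subunit Atp6v0d2 (1.98). Values across libraries were wide apart in Fabp4, from 12.6 CPM in library 6 to 965 CPM in library 10, and in F13a1, from 30.6 CPM in library 2 to 825 CPM in library 10. Library 6 held only 24 Folr2 Mrc1 macrophages, at a median of 3295.5 UMIs, and library 10 held 34, at 6140 UMIs. Low values in library 6 rest on very few UMIs, and the part of sampling in these ranges was not tested.

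The 8 genes with the lowest ratios included monocyte and neutrophil genes. Ly6c2, a surface antigen of inflammatory monocytes, was at 2.78, 11.5 and 75.3 CPM in the lowest, median and highest library of Folr2 Mrc1 macrophages, against 74.7, 222 and 539 CPM (median log2 ratio, -3.66). The ranges met only at library 4 of the former and library 3 of the latter. Ccr2, the receptor that brings monocytes out of the bone marrow, was at 12.6 to 109 CPM against 93.5 to 356 CPM (-2.63), and Plac8, another monocyte gene, at 7.39 to 265 CPM against 160 to 1281 CPM (-4.07), both with overlap at the ends. Napsa, an aspartic protease, was at 1.87 to 35.0 CPM against 38.3 to 214 CPM (-3.08), without overlap. Chil3, a chitinase-like protein, was at 23.2 against 206 CPM over the pooled cells, the chemokine Cxcl3 at 29.2 against 53.9 CPM, S100a8 at 48.0 against 122 CPM and its partner S100a9 at 41.3 against 150 CPM. Since S100a9 had no UMI in 7 libraries of Folr2 Mrc1 macrophages, Chil3 and Cxcl3 none in 4 and S100a8 none in 1, their ratios depend on the added 1 CPM and are not given.

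**Figure D2:**
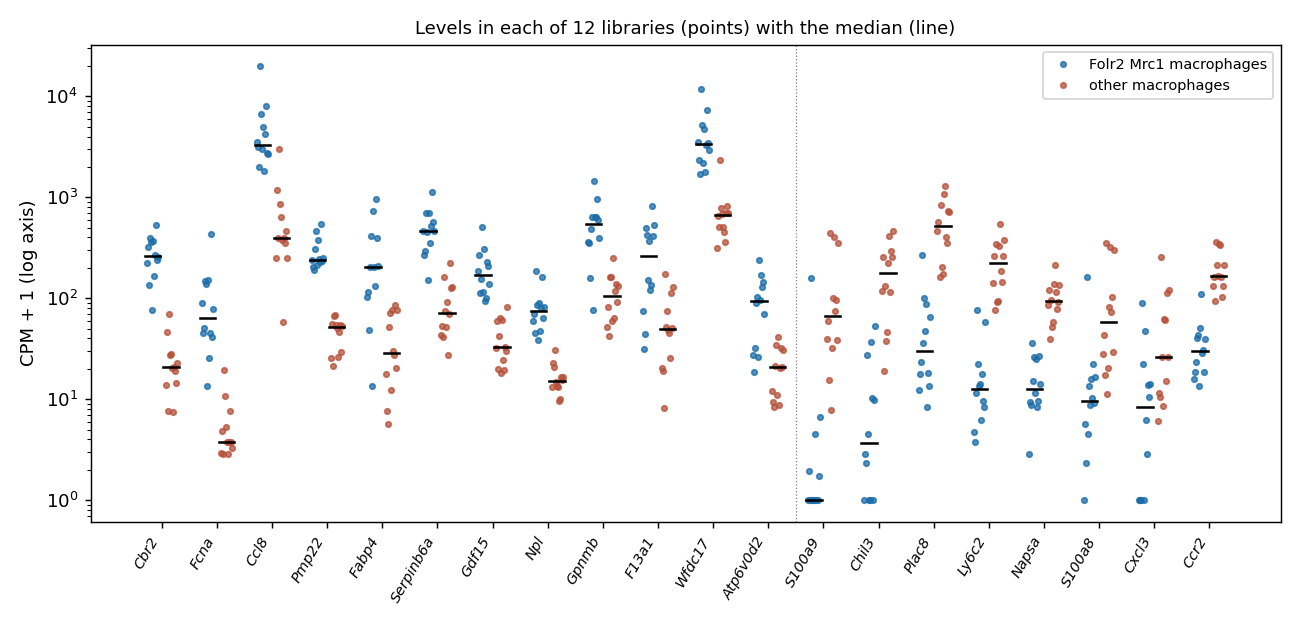
Level of the 12 genes with the highest and the 8 with the lowest median ratio (CPM + 1, log axis) in Folr2 Mrc1 macrophages (blue) and in the other macrophages (red). Each point is 1 library and each line the median of 12. Cbr2 and Pmp22 do not overlap between the groups, while S100a9 sits at 0 CPM in 7 libraries of Folr2 Mrc1 macrophages.

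Genes known from tissue-resident macrophages were the list with the highest median. This list was set with earlier results of these data known, and it holds Cbr2, Fcna, Ccl8 and F13a1 of the 12 highest genes. Its rank is a description and not support from outside these data. Of the 22 genes of the list 16 were measured, and 12 of these were higher and 1 lower, with a median log2 ratio of 1.52 (1.30 without library 4) beside 0.004 for all genes. Of all genes 3.24% were higher and 2.26% lower. In libraries 7 to 12 alone 13 of 17 were higher and 1 lower (1.91), and in libraries 1 to 6 alone 12 of 16 and 1 (1.38). Without library 4, Cd163 fell below the limit of 10 CPM and 11 of 15 were higher. Cd163 and Fcna were measured only through their level in Folr2 Mrc1 macrophages, and among the 14 genes of at least 10 CPM in both groups 10 were higher and 1 lower (1.31). The higher genes were Cbr2, Fcna, Ccl8, Cd163, F13a1, Gas6, Selenop, Ltc4s, Pf4, Igf1, Stab1 and Ninj1. Selenop, which carries selenium out of cells, was at 1234 to 2937 CPM against 332 to 847 CPM (1.78), with no overlap. Gas6, a bridge between dying cells and the receptors Mertk and Axl, was at 226 to 748 CPM against 28.3 to 203 CPM (1.88), again with no overlap. Stab1, a scavenger receptor, was at 272 to 453 CPM against 124 to 237 CPM (0.99). The lower gene was Mgl2, a lectin of dermal macrophages and dendritic cells, at 17.5 CPM (1.85 to 75.5 across libraries) against 103 CPM (19.7 to 182).

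The classical markers of long-lived resident macrophages were low in level, and their values in the other macrophages are given beside them. Timd4, a receptor for phosphatidylserine, was at 0.988 CPM against 0.488 CPM, and no UMI of it remained in 1071 Folr2 Mrc1 macrophages after thinning (which allows a share of up to 0.280%), whereas 0.310% of T cells held one. Lyve1, a hyaluronan receptor, was at 15.6 CPM, from 0 CPM in libraries 2, 6 and 9 to 36.2 CPM in library 12 and 136 CPM in library 10, and 0.159 CPM in the other macrophages. It was found in 1.77% of thinned Folr2 Mrc1 macrophages (1.07 to 2.76%), in 0.0317% of the others and in none of 4195 T cells (up to 0.0715%). Cd163, the receptor for hemoglobin and haptoglobin, was at 31.2 against 1.19 CPM, with 77.2 CPM in library 4 and 97.8 CPM in library 10 and at most 24.3 CPM elsewhere. Vsig4, a complement receptor, was at 9.30 CPM over the pooled cells and at 87.9 CPM in library 1, against 0.135 CPM in the other macrophages. Retnla, which interleukin 4 induces, was at 238 CPM in library 10 and 453 CPM in library 12, and at most 70.1 CPM in the rest. Over the pooled cells it was at 128 against 20.2 CPM. Library 10 held 34 Folr2 Mrc1 macrophages, so its values rest on few cells.

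MHC class II genes were lower as a group. Of 8 measured genes of that pathway 6 were lower and none higher (median log2 ratio, -1.82; -1.75 without library 4, -1.93 in libraries 7 to 12 alone and -1.63 in libraries 1 to 6 alone). Of all genes 2.26% were lower. H2-DMb2 and Ciita were measured only through their level in the other macrophages. The 6 genes of at least 10 CPM in both groups were all lower (-1.865). H2-Ab1, which codes for a chain of the molecule that shows peptides to CD4 T cells, was at 404, 990 and 2100 CPM in the lowest, median and highest library, against 1312, 4072 and 5763 CPM in the other macrophages (-2.09). Library 10 gave the lowest level in both groups, and 3 libraries of Folr2 Mrc1 macrophages lay above the lowest value of the others, namely 5 (1965 CPM), 6 (2100 CPM) and 8 (1319 CPM). H2-Eb1 (-2.30), H2-Aa (-1.97), the invariant chain Cd74 (-1.76) and the peptide loading genes H2-DMb1 (-1.44) and H2-DMa (-1.03) were the other 5. The share of thinned cells with an H2-Ab1 UMI was 45.4% against 83.4%, and 35.4% in T cells. The level in T cells, 1148 CPM, was above the 825 CPM of Folr2 Mrc1 macrophages, and the T cells were not cleared of cells holding B cell or dendritic cell RNA, so no background for MHC class II is drawn from them. Itgax, an integrin of dendritic cells and some macrophages, was lower too (63.2 against 159 CPM; -1.31).

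Of 13 measured monocyte genes 9 were lower and none higher (median, -1.97; -2.40 without library 4), where 3.24% of all genes were higher and 2.26% lower. Beside those named above these were Hp, F10, Vcan, Ms4a4c and Cd244. Hp, Vcan, Cd244 and Ifitm6, the last not called, were measured only through their level in the other macrophages, and among the 9 genes of at least 10 CPM in both groups 6 were lower (-1.97). In the list of 13 general macrophage genes the median was 0.02, Maf, Cd68 and Lyz2 were higher and Itgax lower. Fcgr1, Mertk and Tyrobp, also of the list, were not called.

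Genes of uptake and breakdown were raised in part. Among 19 lysosomal genes 8 were higher and none lower (median, 0.43), with the proteases Ctsd at 3959 to 7768 CPM against 1009 to 3881 CPM (1.55), Ctsl (1.04) and Ctsb (1.03). Among 15 genes of lipid-associated macrophages 7 were higher and none lower (0.67). These were Fabp4, Gpnmb, Fabp5 (1.76), the cholesterol exporter Abca1 (0.87), its regulator Nr1h3 (0.81), the lipid receptor Trem2 (0.77) and the droplet coat Plin2 (0.67), while Spp1 was at 2395 against 1038 CPM and was not called. Apoe, a carrier of cholesterol, was the most abundant gene of this list, at 26950 CPM (18720 to 38320 across libraries) against 19670 CPM (11810 to 31660), not called. Among 14 genes of iron and heme handling 5 were higher and none lower (0.51), or 4 of 13 without library 4 or among genes of at least 10 CPM in both groups. Of these, Tfrc takes iron in (1.71), Slc40a1 lets it out (1.54), Hmox1 breaks down heme (1.41), Cd163 takes up hemoglobin, and Hpgds, a prostaglandin synthase (0.82), was the fifth. Hmox1 was at 138 to 1796 CPM against 122 to 705 CPM, with wide overlap across libraries. Of 11 endocytic and scavenger receptors 3 were higher, namely Cd163, Stab1 and Fcrls, or 2 of 10 without library 4 or among genes of at least 10 CPM in both groups, which leave out Cd163, and of 12 efferocytosis genes 2, Gas6 and its relative Pros1 (1.01). Counts this small are to be read beside the 3.24% of all genes that were higher. Fcgrt, which recycles antibody and albumin, was the 1 gene called among 6 Fc receptor genes (204 against 63.9 CPM; 1.47).

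Of 10 measured genes of folate uptake and one-carbon metabolism none was called, with a median log2 ratio of -0.06. Since 3.24% of all genes were higher and 2.26% lower, a count of 0 among so few is near the background and says little about the list. The carriers Slc19a1, at 5.92 CPM in both groups, and Slc46a1, at 5.43 against 2.65 CPM, were under the limit of 10 CPM, and Folr1 had no UMI in the 1077 cells. Ggh, which trims folate chains in lysosomes, was at 115 against 98.7 CPM.

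Secreted signals went both ways, in counts that are small and stand beside 3.24% of all genes higher and 2.26% lower. Of 13 growth factor and cytokine genes, Igf1 (243 against 97.9 CPM; 1.26), Pdgfc (47.3 against 18.3 CPM; 1.46) and Gas6 were higher. Il1b, the inflammatory cytokine interleukin 1 beta, was at 267, 573 and 1145 CPM across libraries against 1150, 2137 and 3756 CPM (-1.93), and the ranges did not overlap. The matrix protein Tgfbi (-1.19) and the vessel growth factor Vegfa (-0.75) were lower too. Timp2, an inhibitor of matrix proteases, was at 798 to 1602 CPM against 195 to 505 CPM (1.72), with no overlap, and was the 1 gene called among 10 of its list. Of 11 CC chemokines Ccl7 and Ccl8 were higher, and Ccl17, with 1.65 against 47.9 CPM, was lower. Ccl17 was measured only through its level in the other macrophages, and none of the 10 CC chemokines of at least 10 CPM in both groups was lower. Of 7 CXC chemokines Pf4 was higher (3075 against 714 CPM; 1.37) and Cxcl3 and Cxcl10 lower, the call of Cxcl10 being lost without library 4 and in libraries 1 to 6 alone. Of 12 genes that respond to interleukin 4 none was higher and Chil3, Mgl2 and Ccl17 were lower, or 2 of 11 without Ccl17. Retnla, also of this list, was at 128 against 20.2 CPM and was not called. In libraries 7 to 12 alone 1 gene, Clec10a, was higher and 4 were lower, and in libraries 1 to 6 alone 0 and 5. Mrc1 and Arg1 were set by the rule and are not in this list, and Chil3 is also in the monocyte list. Of 19 transcription factors Maf, Klf2 (1.00) and Nr1h3 were higher and none was lower.

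Ezh2, the methyltransferase of Polycomb repressive complex 2 and the target of the inhibitor, was at 17.7 CPM (14.9 to 62.9 across libraries) against 21.7 CPM (16.8 to 28.7) in the other macrophages and was not called (median log2 ratio, -0.05), and 3.17% of thinned Folr2 Mrc1 macrophages held an Ezh2 UMI, against 4.47% of the other macrophages and 12.1% of T cells. Of 12 measured genes of Polycomb subunits and their known targets none was called, which is again near the background of 3.24 and 2.26%. Ezh2 is a gene of dividing cells, and cells with a UMI of Mki67 or Top2a were left out by the rule.

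**Figure D3:**
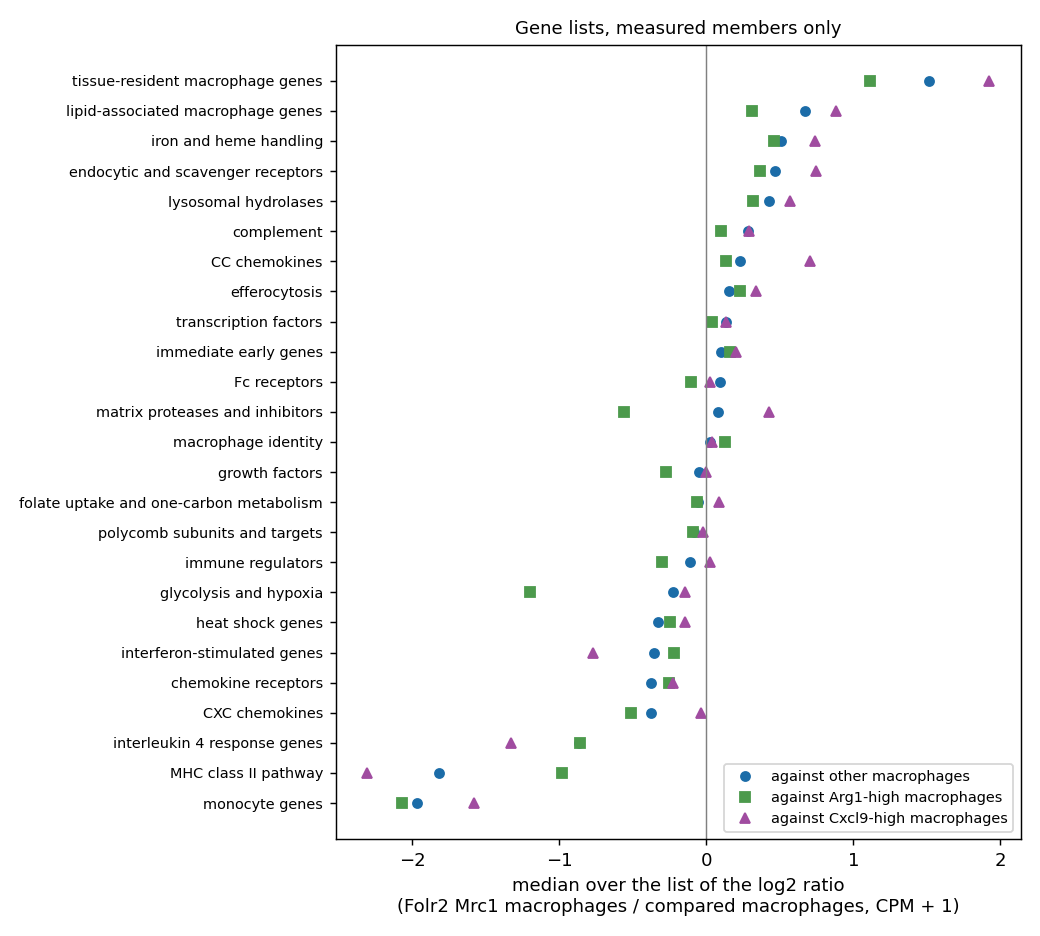
Median log2 ratio over the measured genes of each of 25 gene lists (horizontal axis), Folr2 Mrc1 macrophages against the other (blue), Arg1-high (green) and Cxcl9-high macrophages (purple). Tissue-resident genes lie at the top with medians of 1.52, 1.11 and 1.93, monocyte and MHC class II genes at the bottom, and glycolysis and hypoxia genes depart from 0 mainly against Arg1-high macrophages (-1.20).

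Against Arg1-high macrophages, genes of glycolysis and hypoxia were lower. Of 7282 genes 154 were higher (2.11%) and 195 lower (2.68%), or 83 and 302 with TMM, which moved the median log2 ratio of all genes from 0.033 to -0.109. Of 17 genes of glycolysis and hypoxia 16 were lower and none higher (median, -1.20), far beyond that shift. The glucose transporter Slc2a1 was at 38.6 against 171 CPM (-2.01), the hypoxia gene Egln3 at 11.4 against 54.2 CPM (-3.08), the mitophagy gene Bnip3 at 76.5 against 238 CPM (-1.99), Pgk1 at 304 against 728 CPM (-1.52) and Ldha at 537 against 1074 CPM (-1.03). Pdk1 was the seventeenth (21.1 against 36.9 CPM). Against the other macrophages only Vegfa and Slc2a1 of this list had been lower. The named genes highest in this comparison were Cd5l, a scavenger protein of tissue macrophages (108 against 8.75 CPM; 3.51), Ccl8 (2.82), Fcna (2.66), Cbr2 (2.54) and Selenop (2.12). Cd5l ranged from 6.72 CPM in library 12 to 284 CPM in library 4. It was under 10 CPM in Arg1-high macrophages and was measured only through its level in Folr2 Mrc1 macrophages. Those lowest were Chil3, Inhba (4.20 against 77.9 CPM), S100a9, Slpi (8.39 against 67.0 CPM) and Ccl24 (18.4 against 220 CPM), each with libraries at 0. Nos2, which makes nitric oxide, was at 1.48 against 38.2 CPM. Inhba, Slpi and Nos2 were under 10 CPM in Folr2 Mrc1 macrophages and were measured only through their level in Arg1-high macrophages. F13a1, Pf4 and Hmox1, all called against the other macrophages, were not called here, with median ratios of 0.04, 0.37 and -0.20. MHC class II genes were lower again, 5 of 8 (-0.98), as were 10 of 12 monocyte genes (-2.07). Of these monocyte genes Vcan, Hp and Cd244 were under 10 CPM in Folr2 Mrc1 macrophages and were measured only through their level in Arg1-high macrophages.

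Against Cxcl9-high macrophages, 324 of 7189 genes were higher (4.51%) and 204 lower (2.84%), or 223 and 343 with TMM. MHC class II was the list furthest down, with 7 of 8 genes lower (median, -2.31), and H2-Ab1 stood at 825 against 6169 CPM. Ciita, among the 7, was under 10 CPM in Folr2 Mrc1 macrophages and was measured only through its level in Cxcl9-high macrophages. Of 17 interferon-stimulated genes 9 were lower and none higher (-0.77). Gbp2, a guanylate binding protein, was at 84.8 against 441 CPM (-2.11), and Cxcl10 at 243 against 929 CPM (-1.64). The highest named genes were Fabp4 (236 against 4.93 CPM; 5.38), Cbr2 (4.78), Cd5l (108 against 0.850 CPM; 4.54), F13a1 (352 against 12.5 CPM; 4.27) and Fcna (90.8 against 2.11 CPM; 4.11). Fabp4, Cd5l and Fcna were measured only through their level in Folr2 Mrc1 macrophages. The ratios of Cd5l and Fcna depend much on the added 1 CPM, and that of Cd5l was 3.915 to 5.17 with 1 library left out. The lowest were Plac8 (-4.22), Dnase1l3, a DNA-degrading enzyme (11.1 against 126 CPM; -3.63), Ccl17, Chil3 and Klrb1b (1.81 against 51.3 CPM). Ccl17 and Klrb1b were under 10 CPM in Folr2 Mrc1 macrophages and were measured only through their level in Cxcl9-high macrophages. Of 14 iron and heme genes 7 were higher (0.74), with Hmox1 at 909 against 94.7 CPM. Cd163 was among the 7 (31.2 against 0.0386 CPM) and was measured only through its level in Folr2 Mrc1 macrophages. Folr2 Mrc1 macrophages were set against the 2 classes over the same 1077 cells, so these comparisons are not independent of each other.

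Levels also differed by which of the genes of the rule reached 2 UMIs, and "alone" and "neither" are used here in that sense. Of the 251 cells with Folr2 alone 129 held 1 UMI of Mrc1, and 9823 of the other macrophages had no UMI of either gene. Among macrophages below the Arg1 and Cxcl9 limits, Ccl8 was at 7338 CPM where both were at 2 or more, 6400 CPM in 251 cells with Folr2 alone, 928 CPM in 8782 cells with Mrc1 alone and 311 CPM in 15220 cells with neither. Library 4 held 30.4, 36.7, 8.28 and 6.08% of these cells, and without it Ccl8 was at 3088, 2325, 702 and 252 CPM. In the 4 libraries with at least 20 cells of each kind (2, 4, 6 and 9), Ccl8 was higher with Folr2 alone than with Mrc1 alone in 4, but higher with both than with Folr2 alone in only 2. Cbr2 fell in the same order, from 288 to 125, 35.6 and 9.58 CPM (251, 66.7, 31.3 and 8.20 CPM without library 4), and did so in 3 of the 4 libraries. F13a1 fell from 352 to 124, 72.0 and 46.4 CPM, in that order in 2 of them. Gpnmb was at 600 CPM with Folr2 alone and 502 CPM with both, and was higher with both in 1 of the 4. H2-Ab1 ran the other way, from 825 to 1186, 3455 and 4931 CPM, and did so in 3 of the 4. Ly6c2 was at 35.9 CPM with both, 69.4 CPM with Mrc1 alone, 235 CPM with Folr2 alone and 410 CPM with neither, and was higher with Folr2 alone than with Mrc1 alone in 3 of the 4. Without library 4 it was at 22.5, 60.02, 135 and 402 CPM in that order. Median depth was 7282 UMIs with Folr2 alone and 7619 with Mrc1 alone, below that of the double-positive cells. At the edge of the rule, 481 cells with exactly 2 UMIs of Folr2 or of Mrc1 had 4582 CPM of Ccl8 and 1123 CPM of H2-Ab1. Just outside it, 937 cells with 1 UMI of Folr2 had 2887 and 1567 CPM, and 129 cells with 1 UMI of Mrc1 had 6464 and 1281 CPM. The values at the edge are pooled over libraries, and the part of library 4 in them was not tested.

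**Figure D4:**
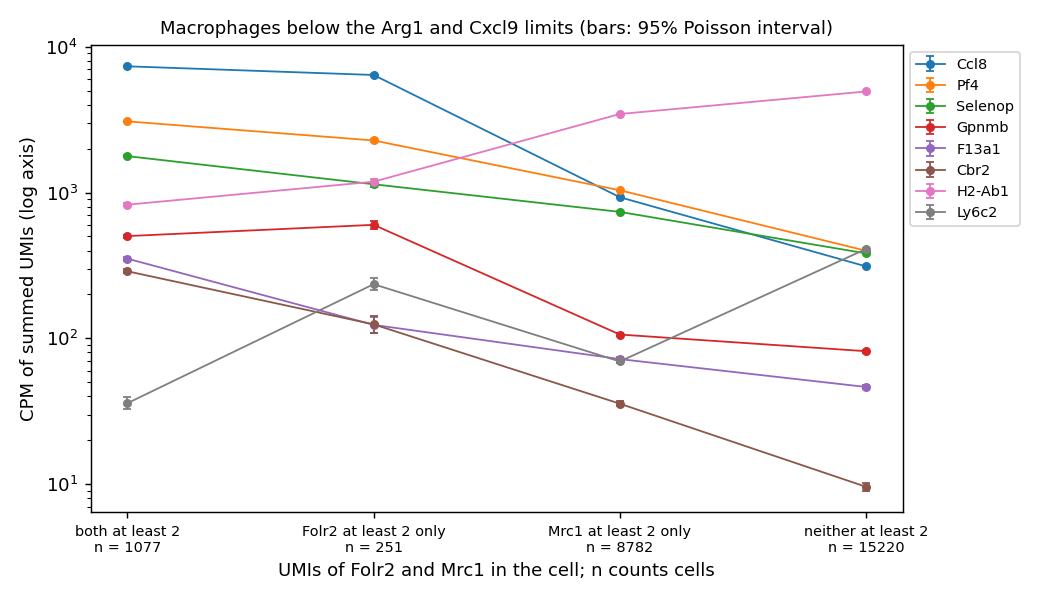
Level of 8 genes (CPM of summed UMIs, log axis) in macrophages below the Arg1 and Cxcl9 limits, split by whether Folr2 and Mrc1 reach 2 UMIs. Bars are 95% Poisson intervals and lines join the values of a gene. The cells are pooled over libraries, of which library 4 holds 36.7% of those with Folr2 alone. Ccl8 is at 6400 CPM with Folr2 alone and 928 CPM with Mrc1 alone, and H2-Ab1 rises from 825 to 4931 CPM.

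The same split was then made in cells the rule had left out. Among Arg1-high macrophages, 1156 cells with at least 2 UMIs of both genes were found, and they were set against the remaining ones within the 11 libraries with at least 20 such cells, which left out library 6 with 15. The limit of 2 UMIs is that of the rule and is again easier to meet in a deeper cell. Median depth was 10448 UMIs in the 1156 cells and 6408 UMIs in all Arg1-high macrophages. The part of depth in the genes that follow was not tested. Of 7233 genes 158 were higher (2.18%) and 105 lower (1.45%). With the genes of the rule left out, 89 of the 233 genes that were higher in Folr2 Mrc1 macrophages than in the other macrophages were higher here as well (38.2% of the former and 57.4% of the latter list), and 64 of 164 were lower in both (39.0% and 61.0%). None was called in opposite directions. Cbr2 (181.7 against 29.0 CPM; median log2 ratio, 2.96), Fcna (2.57), Npl (2.11), Ccl8 (1.95), Gas6 (1.58), F13a1 (1.30), Gpnmb (1.28) and Selenop (1.10) were among the higher genes. Ly6c2 (-3.80), Plac8 (-2.53), H2-Eb1 (-2.39), Ccr2 (-2.19) and Il1b (-1.58) were among the lower ones, and all 8 MHC class II genes measured were lower (-1.70). Fabp4 (0.79) and Hmox1 (0.36) were not called in this split, Cd163 was under the limit of 10 CPM in it, and none was called of 18 glycolysis and hypoxia genes (-0.17).

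**Figure D5:**
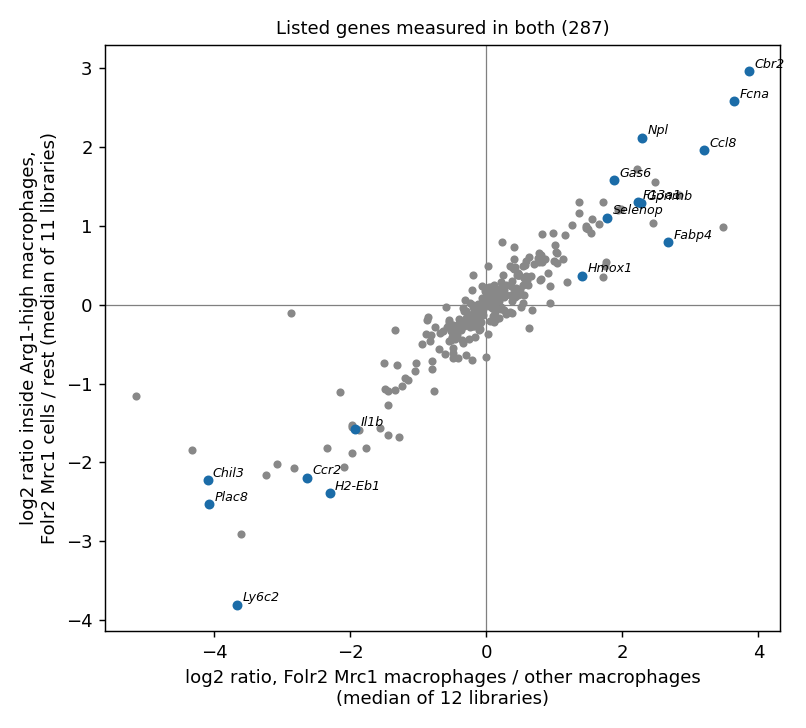
Median log2 ratio of 287 listed genes in Folr2 Mrc1 macrophages against the other macrophages (horizontal axis, 12 libraries) and in the same split of Arg1-high macrophages (vertical axis, 11 libraries), which shares no cells with the former. Points in blue are named. Cbr2 lies at 3.86 and 2.96, Ly6c2 at -3.66 and -3.80, and Fabp4, at 2.67 and 0.79, has the smaller ratio in the split.

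The genes that were higher were not found in every Folr2 Mrc1 macrophage, as sampling at a fixed depth alone would also give. After thinning 1071 of them to 2000 UMIs, 36.8% held a Cbr2 UMI (0.381% of T cells), 33.8% F13a1 (1.33%), 34.3% Gpnmb (1.22%), 15.8% Fabp4 (0.572%), 15.3% Fcna (0.143%) and 11.8% Cd5l (0.0477%). F13a1 was found in 48.2% of the 394 cells with Cbr2 and in 25.4% of the 677 cells without it. Gpnmb was found in 68.6% of the 169 cells with Fabp4 and in 27.8% of the 902 without. Spearman's rho across cells was computed for 9 pairs of genes, of which 5 had the same sign and 4 had not in all 8 libraries with at least 50 cells. It was 0.301 for Cbr2 and F13a1 (0.159 to 0.553 within libraries), 0.372 for Cbr2 and Selenop (0.0606 to 0.597) and 0.355 for Fabp4 and Gpnmb (0.183 to 0.513). Spp1, the gene of osteopontin, and H2-Ab1 gave -0.222 (-0.392 to -0.0968), and H2-Ab1 was found in 39.8% of cells with Spp1 and 57.6% of those without. F13a1 and H2-Ab1 gave -0.149 (-0.226 to -0.0701). The pairs that crossed 0 were Ccl8 with Selenop (-0.0221 to 0.551), Ccl8 with Cbr2 (-0.00255 to 0.477), Gpnmb with Spp1 (-0.00846 to 0.455) and Cbr2 with H2-Ab1 (-0.255 to 0.041). These are descriptions over cells that share libraries and a fixed depth, in sparse counts.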

How the data were processed

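CD45+ cells of 12 MC38 tumors, in 4 groups of 3, were measured by droplet single-cell RNA-seq. The values deposited by the authors are UMI counts per gene and cell, not normalized, in 1 matrix of 140639 barcodes and 31053 genes. Its header names Cell Ranger 3.0.2, while the submitters' processing notes name Cell Ranger 2.1.1, Seurat and build mm10; the annotation is not given in the sources used here. Of the gene identifiers, 30934 were found in GENCODE M21.

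Because library numbers are not tied to mice by the labels, the tests across samples that treatment groups would need were not made. Folr2 Mrc1 macrophages, the gene lists and the other choices were set with earlier results of these data known. UMIs were summed by library and class and scaled to CPM, and log2 ratios were taken per library after adding 1 CPM to both values, which understates the ratios of low genes. Genes had to average at least 10 CPM over the pooled classes, and libraries to hold at least 20 cells of each. A gene was called when the median ratio reached 1.5-fold and all libraries used had the same sign. The text names the 12 highest and 8 lowest called genes of at least 50 CPM against the other macrophages, the 5 highest and 5 lowest against each other class, the label's markers, Ezh2, and from each list the members with the largest differences; further members of the lists are named for their roles. Of 401 list genes 400 were found. For shares, cells were thinned at random to 2000 UMIs, which left out 6 Folr2 Mrc1 macrophages and 4535 of all macrophages; the T cells used as a low-side gauge of free RNA (at least 2 UMIs of Cd3d, Cd3e and Cd3g together and none of Adgre1 or Csf1r) numbered 6448 (median 2783 UMIs), of which 4195 could be thinned. Intervals at 95% are exact binomial (Clopper-Pearson) for shares and exact Poisson for summed UMIs, and the limit given for a count of 0 is 3 counts of the total. No doublet caller was run. The procedure was checked on simulated counts. The software was pandas 2.3.3, scipy 1.17.1, numpy 2.4.6 and matplotlib 3.10.9 under Python 3.11.15, with edgeR 4.0.16 for TMM factors only. Alternatives were the mitochondrial limit, the limits on the 4 genes of the rule, thinning, the lineage step, the low-gene filter, the pseudocount, the fold, pooling, TMM and leaving out libraries.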

Additional observations from a re-analysis of the deposited data

How the results depend on the processing

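The share of Folr2 Mrc1 macrophages, 2.0% of macrophages, was 1.71% with a mitochondrial limit of 5%, 4.45% and 1.11% with at least 1 or 3 UMIs of both genes, 2.23% with limits per 10000 UMIs, 1.38% and 2.68% with Arg1 and Cxcl9 under 2 or 10 per 10000, 0.211% (68 cells) when cells were thinned before the whole rule, 1.41% without cells holding a UMI of another lineage, and 1.53 to 2.53% with 1 library left out, the extremes being without libraries 4 and 6. Added after seeing the data, it was 1.24% with 1 UMI of both genes after thinning, 1.30% without libraries 4 and 12 and 2.82% without libraries 1 to 6.

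Against the other macrophages, the 235 higher and 164 lower genes became 131 and 91 at a mean of at least 50 CPM, 486 and 313 in pooled sums, 96 and 82 at a fold of 2, and 405 and 269 against cells with no UMI of Folr2 or Mrc1. Thinning gave 129 higher genes, a mitochondrial limit of 5% gave 354 higher in 8 libraries, no filter gave 272 lower, and the split inside Arg1-high macrophages, added later, 105 lower. Against Arg1-high macrophages, 154 and 195 became 95 and 109 at 50 CPM, 337 and 342 in pooled sums, 45 and 109 at a fold of 2 and 83 and 302 with TMM. Thinning gave 91 higher and the mitochondrial limit 236 higher. Against Cxcl9-high macrophages, 324 and 204 became 178 and 132, 644 and 445, and 165 and 110 under the first 3 of these settings. Thinning gave 174 higher and TMM 343 lower. With 1 library left out, the counts ran from 232 to 310 higher and 159 to 198 lower against the other, 151 to 207 and 182 to 236 against Arg1-high, and 322 to 431 and 200 to 251 against Cxcl9-high macrophages. Without libraries 1 to 6, added later, they were 437 and 290, 314 and 301, and 616 and 380. A stricter filter or fold, or fewer libraries, changes these counts by construction; for the other settings the cause was not tested.

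Of 800 recomputed ratios of named genes, 768 moved by less than 1 SD across libraries, 32 moved further and none changed sign. Every setting that left out 1 library kept all 40 ratios, and such settings make up much of the total. Named genes were chosen for the same sign in every library used. Leaving out libraries or changing the pseudocount could therefore not change a sign, and the lack of such changes there is not a result. The split inside Arg1-high macrophages moved 9 and kept 11. Comparison cells with no UMI of Folr2 and Mrc1 moved 8 and kept 12. Pooled sums moved 6, a pseudocount of 5 CPM 6 and the lineage step 3. S100a8 and S100a9 became 0 without cells holding a UMI of another lineage, because they are markers of that step. No paired analysis was possible because the treatment groups, whose mice the labels number, were not compared. The classes of cells were paired by library throughout, and no test was run on them since measured values had chosen the classes. The depth of a cell limits whether it can meet a rule of 2 UMIs, which touches shallow libraries such as 6, and genes near 10 CPM rest on few UMIs in libraries with under 50 Folr2 Mrc1 macrophages.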
